A study of Drosophila melanogaster with 6 samples.

Results

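The genes described here are 10 metal-handling genes of Drosophila melanogaster: the metallothionein genes MtnA, MtnB, MtnC and MtnD, the ferritin subunit genes Fer1HCH and Fer2LCH, the transferrin gene Tsf1, and the metal transporter genes Mvl, ATP7 and Ctr1A. They were taken by name from the 11981 genes with at least 1 probe set that the annotation gives to a single gene, and all 10 were measured, through 12 probe sets. Each sample was RNA of whole adult flies, 25 males and 25 females together, on 1 Affymetrix Drosophila Genome 2.0 array, an array that reads each transcript through sets of short oligonucleotides. The control group, UAS in the titles, was 3 samples of a stock that carries a UAS antimicrobial peptide transgene and no driver. The other group, GAL4xUAS and called the cross here, was 3 samples of that line crossed to da-GAL4, in which promoter sequence of daughterless, a gene expressed in most tissues, drives GAL4 and GAL4 drives the transgene. The transgene was thus present in both groups, whereas the driver and the chromosomes of the driver stock were present only in the cross, and no flies with the driver alone were analysed here. The labels used here name neither the peptide nor the age of the flies. The series is titled as work on how such peptides bear on oxidant tolerance.

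Metallothioneins are small proteins rich in cysteine that bind copper, cadmium and zinc. In flies their genes are switched on by the metal-responsive transcription factor MTF-1, mainly in the gut. Ferritin stores iron inside a shell built from heavy and light chain subunits, and in insects most of it lies in the secretory pathway and the haemolymph, while transferrin carries iron in the haemolymph. Free iron and copper take part in reactions that make oxygen radicals, so the proteins that hold these metals are usually counted among the defences against oxidants.

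The arrays shared a scale set before deposit. The mean signal without the highest and lowest 2% was 2500.1 on every array, and median signals ran from 767 to 903. Background was judged from 27 control probe sets that read Bacillus genes, whose 95th percentile lay between 90.3 and 123 on the 6 arrays. The probe set that stood for each of the 10 genes was above that level on all 6 arrays. The RNA came from whole flies, where fewer cells of a type and less RNA per cell cannot be told apart. The number of arrays limited the precision.

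None of the 10 genes passed the test of a difference between the cross and the control. In limma, with a prior variance constant over signals and p-values adjusted by Benjamini-Hochberg across the 18769 probe sets tested, 0 of 10 had an adjusted p under 0.05 and the lowest value among them was 0.461. Over all genes this fit also called 0%. At an unadjusted p under 0.05 it gave 0 of the 10, against 10.5% of all genes. With a prior variance that follows the signal (trended and robust) 0 of the 10 passed the adjusted test, against 0.868% of all genes, and 2 of the 10, Mvl and ATP7, had an unadjusted p under 0.05, against 13.8% of all genes. Of the 10 genes 4 were higher in the cross on average and 6 lower, with a median log2 difference of -0.07 beside 0.00 (-0.0019) for all genes. Without control replicate 2 the median of the 10 was 0.062. In 3 of the 10 the arrays of the cross did not overlap those of the control, 2 on the higher side (MtnA and Mvl) and 1 on the lower (ATP7). Among all genes 19.8% were separated in this way, 6.72% higher and 13.1% lower.

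**Figure D1:**
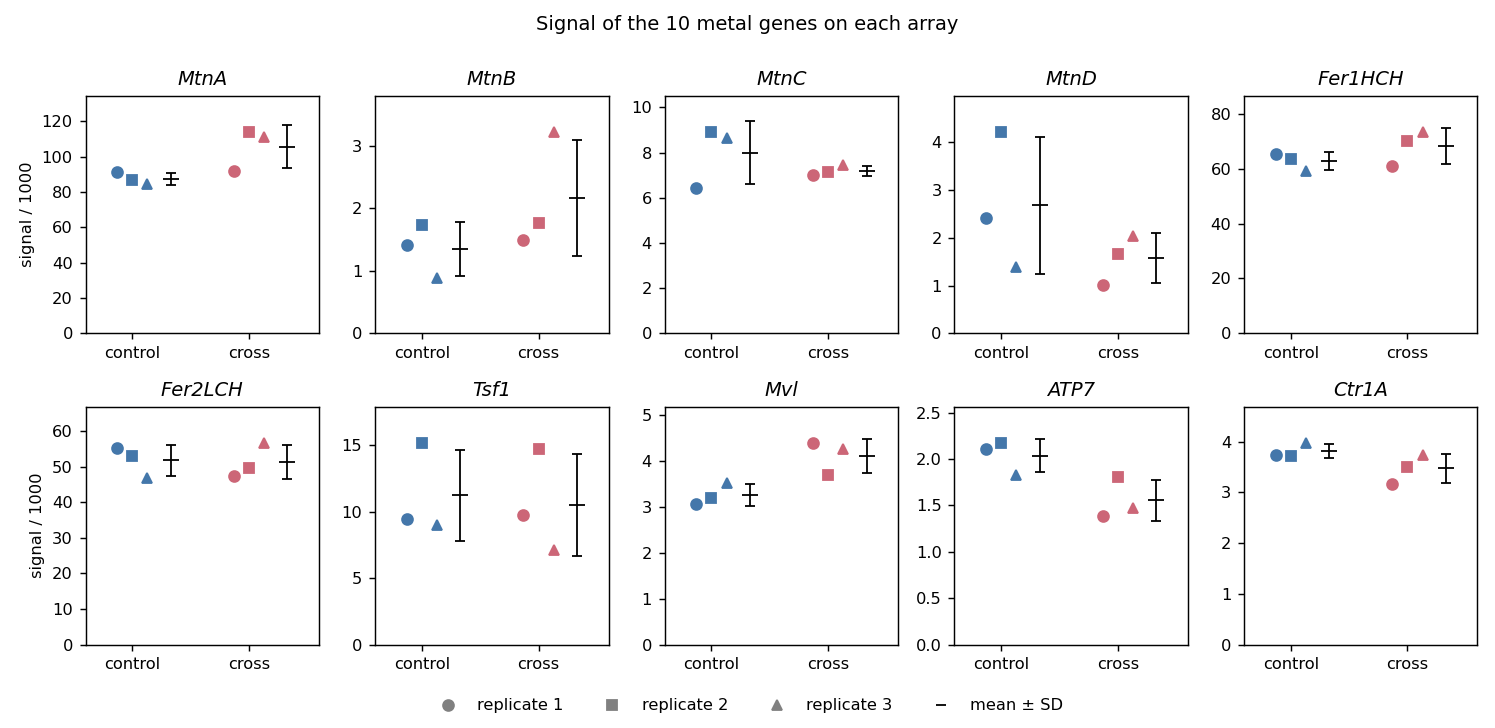
Signal of each of the 10 genes (vertical axes, signal divided by 1000, linear and starting at 0, with a scale of its own in each panel) on the 3 control arrays (blue) and the 3 arrays of the cross (red), with mean and SD in black. MtnA, Mvl and ATP7 are the panels in which the groups do not overlap, and in MtnB, MtnD and Tsf1 the arrays of both groups are widely spread.

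Among the metallothioneins, MtnA, a copper-binding member of the family, had signals of 91209, 86639 and 84626 on control replicates 1 to 3 and of 91791, 114120 and 111183 on replicates 1 to 3 of the cross. All arrays of the cross were higher than all control arrays, but replicate 1 of the cross exceeded control replicate 1 by little. The control mean was 87491 ± 3373 and that of the cross 105698 ± 12133 (SD, n = 3 per group), a log2 difference of 0.27 (95% interval -0.09 to 0.62, limma adjusted p = 0.561). With quantile normalization the difference was 0.13 and the groups overlapped.

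MtnB, whose product binds cadmium as well as copper, gave 1418, 1738 and 889 in the control and 1489, 1772 and 3222 in the cross. The groups overlapped, and the mean of the cross was raised by its replicate 3. The log2 difference was 0.65 (95% interval -0.33 to 1.63, limma adjusted p = 0.604), that is 1.57-fold with an interval from 0.795-fold to 3.10-fold. It was 0.32 without replicate 3 of the cross and 0.38 without control replicate 3.

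MtnD had the opposite direction, with 2420, 4217 and 1394 in the control and 1019, 1663 and 2045 in the cross. Control replicate 2 was the highest array and the groups overlapped. Its log2 difference of -0.68 had the widest interval of the 10 genes (-1.88 to 0.52, limma adjusted p = 0.644), and the control arrays had a coefficient of variation of 53.4%. The difference was -0.28 without control replicate 2, -0.39 without replicate 1 of the cross and -1.08 without control replicate 3.

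MtnC gave 6413, 8915 and 8662 in the control and 7000, 7127 and 7450 in the cross. The arrays of the cross lay within the range of the control and were close together, with a coefficient of variation of 3.23% against 17.2% in the control. The log2 difference was -0.14 (95% interval -0.57 to 0.29, limma adjusted p = 0.780), and leaving out control replicates 1 and 2 moved it to -0.29 and -0.05. MtnB, MtnC and MtnD are close neighbours in the gene order of the Release 6 assembly, with 7 gene starts between MtnC and MtnB and 3 between MtnB and MtnD. The gene MtnE starts next to MtnD and, like MtnF, was not analysed here.

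Because the metallothioneins differed in direction, their signals were also set against each other within each array, a ratio that a scaling factor shared by the probe sets of an array leaves unchanged. For MtnB over MtnD the log2 ratio, taken relative to its control mean, was 0.13, -0.38 and 0.25 in the control and 1.45, 0.99 and 1.55 in the cross. All 3 arrays of the cross were above the control arrays, by 1.33 on average (control SD 0.33, cross SD 0.30, n = 3 per group). MtnB and MtnD had the highest and the lowest log2 difference of the 10 genes (0.65 and -0.68). Their ratio restates those differences and is no separate support for them. A 2-sided exact permutation test gave p = 0.10, the smallest that 3 arrays against 3 allow, so that no ratio could have passed 0.05. The value was 0.267 after Benjamini-Hochberg adjustment over the 8 ratios computed. How often ratios of other gene pairs separate in this way was not computed. The other 5 metallothionein pairs overlapped between groups, with differences from -0.95 for MtnD over MtnA to 0.79 for MtnB over MtnC. The ratio of MtnD to MtnA differed by -0.95 with an SD of 0.78 in the control (exact permutation p = 0.20, adjusted p = 0.267).

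**Figure D2:**
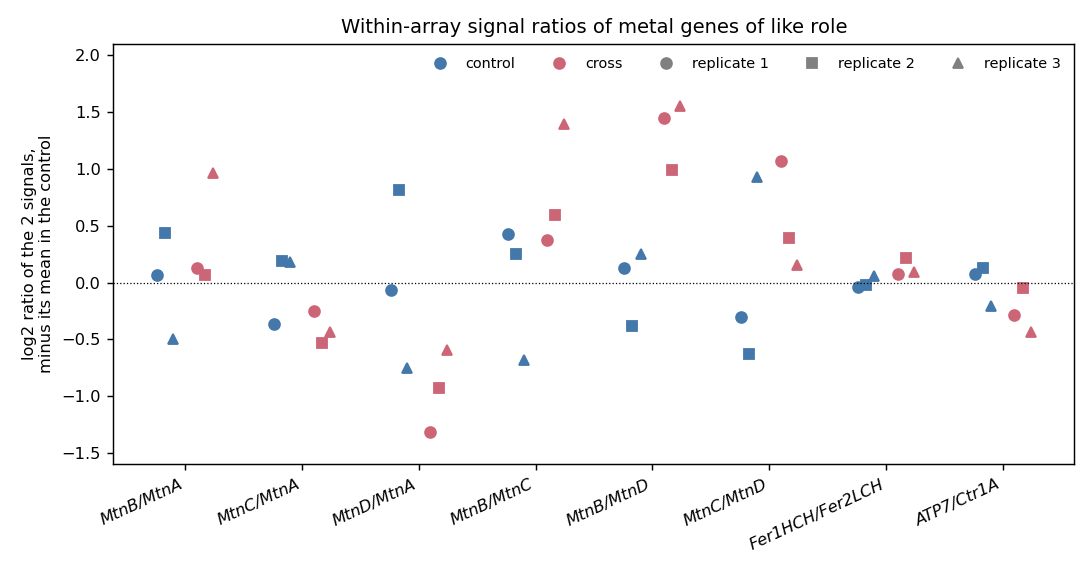
Log2 ratio of the signals of 2 genes on the same array, minus the mean of that ratio in the control (vertical axis), for 8 pairs of metal genes on the 3 control arrays (blue) and the 3 arrays of the cross (red). The groups do not overlap for MtnB/MtnD (difference 1.33) and Fer1HCH/Fer2LCH (difference 0.13), and overlap for the other 6 pairs.

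Both ferritin genes had nearly even signals over the 6 arrays. Fer1HCH, the heavy chain with the ferroxidase centre, gave 65573, 63662 and 59361 in the control and 60908, 70195 and 73518 in the cross. Fer2LCH, the light chain, on which the iron core forms, gave 55284, 52983 and 46907 in the control and 47358, 49670 and 56593 in the cross. The groups overlapped for both subunits, with control replicate 3 and replicate 1 of the cross as the lowest arrays in each. The log2 difference was 0.11 for Fer1HCH (95% interval -0.23 to 0.45, limma adjusted p = 0.769). For Fer2LCH it was -0.02 (95% interval -0.37 to 0.34, limma adjusted p = 0.974), so that a difference outside 0.773-fold to 1.27-fold lay beyond its interval. The sign of Fer2LCH was not settled: it was 0.035 with median centring and between -0.089 and 0.039 with 1 array left out.

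The ratio of the ferritin subunits varied less than either signal. Relative to its control mean, the log2 ratio of Fer1HCH to Fer2LCH was -0.04, -0.02 and 0.06 in the control and 0.08, 0.22 and 0.09 in the cross. The cross lay above the control on all 3 arrays, by 0.13 on average (control SD 0.05, cross SD 0.07, n = 3 per group, 2-sided exact permutation p = 0.10, adjusted p = 0.267). Here too p is the smallest that 3 arrays against 3 allow. Among single genes 19.8% had separated groups. Control replicate 3 and replicate 1 of the cross, the nearest arrays, were 0.06 and 0.08. The ferritin genes start next to each other in the gene order, and the probe sets of both are of the kind that can read several transcripts.

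Tsf1, the transferrin of the haemolymph, varied widely within both groups. Its brightest probe set gave 9454, 15152 and 9021 in the control and 9716, 14674 and 7097 in the cross. Replicate 2 was the highest array in each group, and the groups overlapped over nearly their whole range. A second Tsf1 probe set was also highest on replicate 2 of each group, with 2419, 3427 and 2732 in the control and 2267, 3366 and 2439 in the cross, while the order of replicates 1 and 3 differed between the probe sets. The log2 differences were -0.12 (95% interval -0.99 to 0.75, limma adjusted p = 0.912) and -0.09 (95% interval -0.66 to 0.47, limma adjusted p = 0.890). The sign of the brightest probe set turned when control replicate 2 (0.12) or replicate 3 of the cross (0.13) was left out. The remaining Tsf1 probe set was at or below the background guide on 2 control arrays and on all 3 arrays of the cross, and no fold is given for it.

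Mvl and ATP7 were the transporter genes whose groups did not overlap. Mvl (Malvolio), a transporter of the NRAMP family that moves manganese and iron, gave 3054, 3179 and 3511 in the control and 4386, 3695 and 4251 in the cross. All arrays of the cross were above the highest control array. The Mvl probe set, like those of the ferritin genes, is of the kind that can read several transcripts. The means were 3248 ± 236 and 4110 ± 366 (SD, n = 3 each), 1.26-fold apart (interval 0.995-fold to 1.61-fold). The limma adjusted p was 0.461, with 0.284 to 0.815 over the 13 alternatives, and the log2 difference of 0.34 ranged from 0.29 to 0.41 over them. In the trended fit its interval was 0.06 to 0.62 and its adjusted p 0.302.

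ATP7, the copper-exporting P-type ATPase, gave 2103, 2172 and 1831 in the control and 1383, 1803 and 1474 in the cross. All arrays of the cross were below the lowest control array, replicate 2 of the cross by little. The means were 2035 ± 180 and 1553 ± 221 (SD, n = 3 each), 1.32-fold apart, with a log2 difference of -0.40 (95% interval -0.80 to 0.01, limma adjusted p = 0.461). The difference ranged from -0.51 to -0.32 over the 13 alternatives, with an adjusted p from 0.282 to 0.800. In the trended fit its interval was -0.76 to -0.03 and its adjusted p 0.361.

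Ctr1A, the copper importer of the plasma membrane, gave 3742, 3723 and 3972 in the control and 3170, 3502 and 3743 in the cross. Replicate 3 of the cross reached the level of 2 control arrays, so the groups overlapped. The log2 difference was -0.14 (95% interval -0.46 to 0.18, limma adjusted p = 0.713). The ratio of the exporter to the importer, ATP7 over Ctr1A, differed by -0.26 with overlapping groups (control SD 0.18, cross SD 0.20, n = 3 per group, exact permutation p = 0.20, adjusted p = 0.267).

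**Figure D3:**
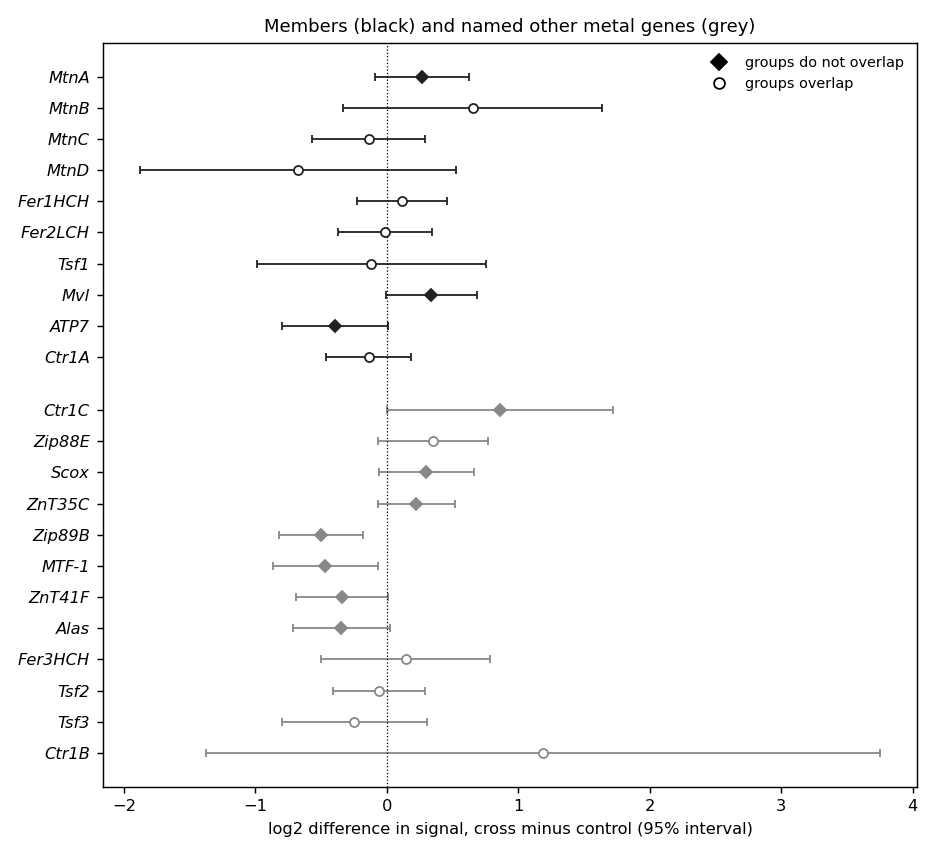
Log2 difference in signal between the cross and the control with its 95% interval (horizontal axis) for the 10 genes (black) and for 12 other metal genes (grey), filled diamonds marking genes whose groups do not overlap. The intervals of all 10 genes include 0, from the narrow one of Ctr1A (-0.46 to 0.18) to the wide one of MtnD (-1.88 to 0.52).

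The wider set of 44 genes for copper, zinc, iron and haem handling had 40 measured members. Of these 20 were higher and 20 lower in the cross, with a median log2 difference of 0.00 (0.0036). With limma 0 of 40 passed the adjusted test, with the constant and with the trended prior. At an unadjusted p under 0.05 there were 3 with the constant prior, 1 higher (3% of all genes) and 2 lower (7.51% of all genes), and 7 of 40 with the trended prior (13.8% of all genes). In 8 of the 40 the groups did not overlap, 3 higher and 5 lower, near the share of all genes (19.8%).

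MTF-1, the factor that switches on the metallothionein genes, was among the lower ones. Its signals were 3516, 3220 and 2990 in the control and 2524, 1994 and 2545 in the cross. All arrays of the cross lay below the lowest control array, with a log2 difference of -0.47 (95% interval -0.87 to -0.07, limma adjusted p = 0.386 and 0.216 in the trended fit). Zip89B, a zinc importer, gave 1530, 1548 and 1452 in the control and 1013, 1021 and 1171 in the cross, also without overlap, with a log2 difference of -0.50 (limma adjusted p = 0.282). The zinc transporter ZnT41F and Alas, the enzyme that starts haem synthesis, had log2 differences of -0.34 and -0.35 with separated groups and adjusted p values of 0.461 and 0.477 in limma.

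On the higher side, the copper importer Ctr1C, which is known from the male germ line, had signals of 213, 208 and 155 in the control and 266, 563 and 276 in the cross. The log2 difference was 0.86 (limma adjusted p = 0.453), and replicate 2 of the cross stood above the others. The log2 differences were 0.35 for the zinc importer Zip88E, 0.30 for Scox, which delivers copper to cytochrome oxidase, and 0.23 for ZnT35C, which loads zinc into storage granules of the Malpighian tubule. Their limma adjusted p values were 0.521, 0.524 and 0.551. Of the closest relatives of the 10 genes, the mitochondrial ferritin gene Fer3HCH had a log2 difference of 0.14, and Tsf2 and Tsf3, the other transferrin genes, had -0.06 and -0.25 (limma adjusted p of 0.851, 0.892 and 0.702). Ctr1B, a copper importer, was dim, with signals of 160, 137 and 12.3 in the control and 148, 213 and 109 in the cross, and was at or below the background guide on 1 array of each group.

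Markers of several tissues differed between arrays. The summed signal of 3 flight muscle genes ran from 102231 to 251724 in the control and from 155353 to 306696 in the cross. It was lowest on control replicate 3 and on replicate 1 of the cross. On these arrays both ferritin genes, MtnA, MtnB, MtnD and ATP7 were lowest in their group. The sum of 6 chorion genes of egg chambers ran from 165259 to 314155 in the control and from 69265 to 277951 in the cross. All 6 were lower on average in the cross, beside 6018 of all 11981 genes, none past the test with either prior. Their log2 differences ran from -0.16 for Cp36 to -2.39 for Cp18. The sum was lowest on replicate 2 of each group, where Tsf1 and ATP7 were highest in their group. With 3 arrays per group such matches are easily found, and none was tested. For 4 fat body genes the sum ran from 71051 to 80314 in the control and from 61816 to 79587 in the cross, with the same arrays lowest in each group as for muscle. All 4 were lower on average, but apolpp and Lsd-1 by log2 differences of only -0.06 and -0.05. Lsp2 and Fbp1, at -0.71 and -0.75, had intervals that included 0. The brightest, apolpp, was highest in the control on replicate 3. For 5 measured midgut genes the sum ran from 289103 to 334702 and from 243287 to 317189, with 5 of 5 lower, beside 6018 of all 11981 genes. The log2 differences of Jon65Aiii, betaTry and alphaTry were only -0.15, -0.07 and -0.06, and that of Mal-A1 was -0.95, none past the test. Among the midgut genes, the lysozyme gene LysX passed in the trended limma fit and was 4.73-fold lower (adjusted p = 0.0236, 0.140 with the constant prior).

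For 2 measured genes listed for the copper cells of the midgut the sum ran from 2565 to 3296 in the control and from 3092 to 3797 in the cross. Vha14-2 had a log2 difference of 0.95 and Vha100-4 of only 0.07 (limma adjusted p of 0.323 and 0.878). The groups of Vha100-4 overlapped, so the 2 genes did not behave alike. The sum of 4 haemocyte genes ran from 12091 to 16165 and from 9906 to 11332 without overlap, with 3 of 4 lower. Pxn and srp had separated groups, as 19.8% of all genes did, with log2 differences of -0.91 and -0.51. Hml and NimC1 overlapped, with 0.05 and -0.11. None of these genes passed (limma adjusted p of 0.248, 0.490, 0.893 and 0.841). The sum of 2 measured tubule genes, of 3 listed, ran from 1966 to 2467 and from 1136 to 1421, also without overlap. Of single genes 19.8% were separated in this way, and of these 2 genes 1 was higher and 1 lower. In the control the sum was mostly Oatp58Db, with a mean of 1668 against 490 for NaPi-T. Oatp58Db, an organic anion transporter of the tubule, fell 2.57-fold in the trended limma fit (adjusted p = 0.0177, 0.135 with the constant prior). NaPi-T, a phosphate transporter gene, was 1.24-fold higher without passing. The sum of 5 accessory gland genes ran from 96954 to 133364 and from 116629 to 186345, with 5 of 5 higher, beside 5963 of all 11981 genes. Their log2 differences ran from 0.17 to 0.40, none past the test with either prior. No marker was listed at 0, and the part of these tissues in the values of the metal genes was not tested.

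**Figure D4:**
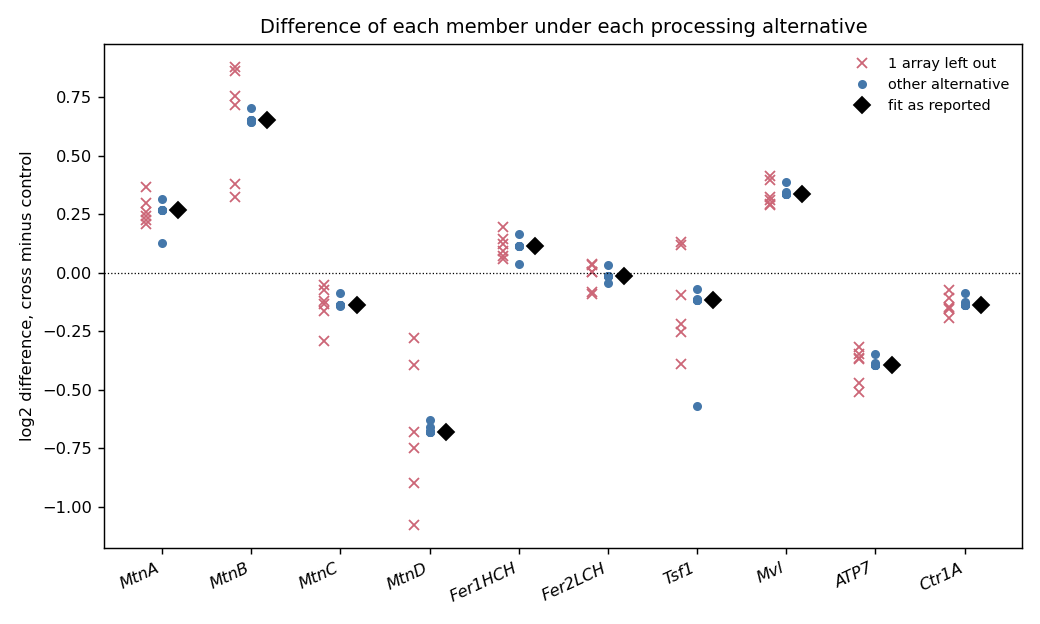
Log2 difference between the cross and the control (vertical axis) of each of the 10 genes in the fit as reported (black), with 1 array left out (red crosses) and under the other processing alternatives (blue). MtnB, MtnD and Tsf1 moved most when an array was left out, Fer2LCH and Tsf1 crossed 0, and the other 8 genes kept their sign.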

How the data were processed

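Biotin-labelled cRNA from 2 ug of total RNA was hybridised, per the labels' protocols. The deposited table holds linear probe set intensity values on a scale common to the arrays. How probes were summarised, background corrected and scaled is not given in the sources. After 183 control probe sets were left out, 18769 were tested. By the platform annotation 13646 had 1 gene symbol, 402 several and 4721 none, and 13543 of the first were found in the Release 6 gene table, which served for names and gene order only. The brightest of a gene's probe sets stood for it. Differences in log2(signal + 1), cross minus control, were tested 2-sided with limma 3.58.1 in R 4.3.3 over all 6 arrays. Fold changes are on that scale. The same fit was run on simulated data with known changes and independent noise. That simulation held no variation shared between probe sets, so it bears only on the code. Nothing in the labels says that replicates were separate cultures, so the p-values reflect only the spread among these samples, and that spread may be technical.

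The genes and lists were chosen with earlier results of these data known. All 10 genes are named, and from the wider list the 4 with the smallest p in each direction, MTF-1 and the closest relatives. The 8 within-array ratios were compared with exact permutation tests. The alternatives were a trended and robust prior, a pseudocount of 16, quantile normalization, dropping the dimmest 33.3% of probe sets, median centring, a replicate block, dropping single arrays, and averaging a gene's probe sets. Whether groups overlapped under these was added after seeing the data.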

Additional observations from a re-analysis of the deposited data

How the results depend on the processing

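Over all probe sets 0 passed in the fit as reported, 147 with the trended prior and 112 without the dimmest 33.3%. The count of the 10 genes past the test was 0 under all 13 alternatives. The number of the 10 with separated groups was 2 with quantile normalization and 3 under the other alternatives with all arrays. Leaving out single arrays moved the median of the 10 genes between -0.078 and 0.062 and that of the wider list between -0.033 and 0.029. The latter was 0.054 with median centring. Fer2LCH was 0.035 with median centring and from -0.089 to 0.039 with 1 array left out, and Tsf1 from -0.39 to 0.13. The median log2 difference of all probe sets was -0.04 as deposited and 0.01 with quantile normalization or median centring. Same-numbered arrays did not deviate together (correlations of deviations of -0.02, 0.00 (0.00066) and -0.10), and with the replicate number as a block 0 probe sets, 0 of the 10 genes and 0 of the wider list passed, with a smallest adjusted p of 0.577 among the 10, a median of -0.07 for the 10 and 0.0036 for the wider list. Tsf1 with its 3 probe sets averaged was -0.57, and the dimmest of the 3 was near background.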
